A study of Macaca fascicularis with 132 samples.

Results

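A group of 72 genes was described that stood higher with interleukin-15 (IL-15) after 12 h of culture and whose mean effect lay close to 0 (within 0.3 on the log2 scale) at 48 h. Blood mononuclear cells of 4 cynomolgus macaques (2 females and 2 males by their labels) had been kept outside the body with heterodimeric IL-15 at 40 ng/ml for 2, 6, 12, 24 or 48 h, or as control cultures for 0, 2, 6, 12, 24 or 48 h. Each animal contributed 3 numbered libraries to each of these 11 groups, and libraries held 16423972 to 87944372 counts with a median of 27185130. The labels do not say whether these 3 libraries are separate cultures, so their counts were summed and the animal was the replicate (n = 4). All groups share the cell source and the culture, and the labels give no agent for the control cultures. The design text speaks of 6 animals, and those beyond the 4 given were not analysed here.

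The members were chosen by a rule on measured values. Counts were scaled as CPM (counts per 1000000 counts of the library) and taken as log2(CPM + 1), and the effect of IL-15 was the difference between IL-15 and control cultures on that scale, averaged over 4 animals. Members had an effect under 0.3 at 2 h, at least 0.7 at 12 h and between -0.3 and 0.3 at 48 h, and a mean of at least 5 CPM in 1 or more control groups. Of 38550 gene IDs in the table, 31327 had at least 1 count and 10811 met the CPM condition, and 72 met all conditions. The effects at 2, 12 and 48 h were therefore selected on, are given as a description and carry no test. The cultures at 6 and 24 h were not used by the rule, apart from the CPM condition in their control groups, and each test compares cultures at these times with each other or with control cultures at 0 h. The 0 h cultures enter the rule through the CPM condition only. All 72 members had enough counts to be tested.

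IL-15 is a cytokine that signals in lymphocytes through a receptor made of the IL-2/IL-15 receptor beta chain and the common gamma chain, and the IL-15 receptor alpha chain binds it and presents it to neighbouring cells. Signalling runs through the kinases JAK1 and JAK3 to STAT5, and through the PI3K and MAPK pathways. In blood it is known for the survival, growth and cytotoxic function of natural killer cells and memory CD8+ T cells. Activated lymphocytes switch on genes in waves, from early regulators to later genes of growth and division, and some of these genes are also switched off again. The gene table pairs none of its IDs with a symbol, and 0 IDs could be matched to one, so the members are described by their time courses and the roles of single members are not given. For the same reason the label of the cells could not be checked against marker genes. In RNA from mixed blood cells, a change in the number of cells of a type and a change in the RNA of each cell cannot be told apart.

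The time course of the members in both kinds of culture shows where the 12 h difference lay. Relative to control cultures at 0 h, the members' median level in IL-15 cultures was -0.18, 0.29, 0.84, 1.01 and 0.47 on the log2(CPM + 1) scale at the 5 times from 2 to 48 h. In control cultures it was -0.21, -0.13, 0.02, 0.16 and 0.33. The IL-15 cultures thus stood highest at 24 h and the control cultures at 48 h. Over the 10811 genes that met the CPM condition, the medians lay between -0.03 and 0.27 with IL-15 and between -0.08 and 0.33 in control cultures at 2 to 48 h.

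**Figure D1:**
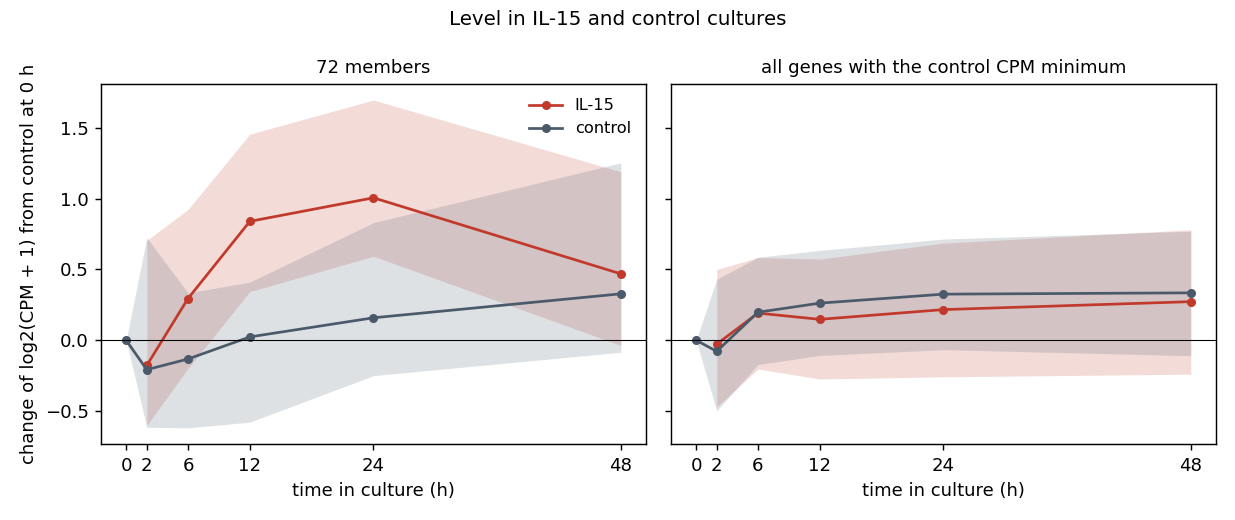
Change of log2(CPM + 1) from control cultures at 0 h against time in culture, for the 72 members (left) and all genes that met the CPM condition (right); lines join medians over genes of the mean of 4 animals and bands run from the lower to the upper quartile of the genes. Among members the IL-15 line reaches 1.01 at 24 h, where the control line is at 0.16, and the lines lie at 0.47 and 0.33 at 48 h.

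As a description of what the rule selected, the members' effect had a median of 0.02 at 2 h (lowest -0.57, highest 0.27), 0.90 at 12 h (0.71 to 2.53) and 0.12 at 48 h (-0.24 to 0.29). At 48 h 57 of the 72 (79.2%) were still above 0, against 42.5% of the genes that met the CPM condition. The nearest values inside and outside the limits were 0.27 and 0.31 at 2 h, 0.71 and 0.70 (just under the limit) at 12 h, and 0.29 and 0.30 (just over it) in size at 48 h. For the CPM condition they were 5.11 and 3.84 CPM. Within 0.1 of the 12 h limit lay 20 members inside and 36 genes outside, and within 0.1 of the 48 h limit 26 members inside and 23 genes outside, so the group has no gap around it. Of 417 genes that met the conditions up to 12 h, 72 were members, 319 still had an effect of at least 0.3 at 48 h and 26 had one of -0.3 or lower. Members, with an effect within 0.3 of 0 at 48 h, were thus the smaller part of the genes that met the conditions up to 12 h.

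The first comparison asked whether the members already differed at 6 h. They were mostly higher with IL-15, by small amounts, and 17 of 72 (23.6%) passed the test as higher (edgeR quasi-likelihood test, Benjamini-Hochberg adjusted p under 0.05 over 18197 genes, n = 4 animals). Among all genes tested 5.12% were called higher and 3.54% lower, and among the genes that met the CPM condition 7.19% were called higher. No member was called lower, none was at an unadjusted p under 0.05, and DESeq2 also called 0 lower. Fold changes of the 17 ran from 0.49 to 1.98 on the log2 scale with a median of 0.80. The median over all 72 members was 0.46, against -0.01 over all genes tested. In mean log2(CPM + 1) the effect was above 0 for 71 members, with a median of 0.41, and 57 (79.2%) were above 0 in 4 of 4 animals, against 24.2% of the genes that met the CPM condition. Among the 319 genes that met the same conditions up to 12 h and had a lasting effect it was 78.1%. This trait was thus not particular to the members. With each animal and time as a block, 28 members were called higher, and without animal 38142 or without animal 38155 the number was 10 each. With only the 6 h groups in the fit it was 44.

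At 24 h the difference was carried by most members. Of 72, 62 (86.1%) were higher with IL-15 (same test), against 20% of all genes tested and 28.1% of those that met the CPM condition. No member was lower, where 19% of all genes were, and 0 members were lower at an unadjusted p under 0.05 or with DESeq2. Fold changes of the 62 ran from 0.42 to 2.28 on the log2 scale with a median of 0.93, and those of the 10 others from 0.31 to 1.74 with adjusted p from 0.0549 to 0.481. The median over all members was 0.91, against -0.05 over all genes tested. In mean log2(CPM + 1) all 72 were above 0, 36 by at least 0.7, and 48 (66.7%) were above 0 in 4 of 4 animals, against 18.9% of the genes that met the CPM condition. Among the 319 genes with a lasting effect 93.7% were above 0 in 4 of 4 animals. Their median effect at 24 h was 1.19, against 0.70 in the members. At 6 and 12 h it was already larger, at 0.53 and 1.11, against 0.41 and 0.90 in the members. The members' smaller effect was thus not particular to 24 h. The effect at 24 h was at least as large as that at 12 h for 16 members and under 0.3 for 4. The median ratio of a member's effect to its own effect at 12 h was 0.414 for 6 h, 0.742 for 24 h and 0.109 for 48 h.

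**Figure D2:**
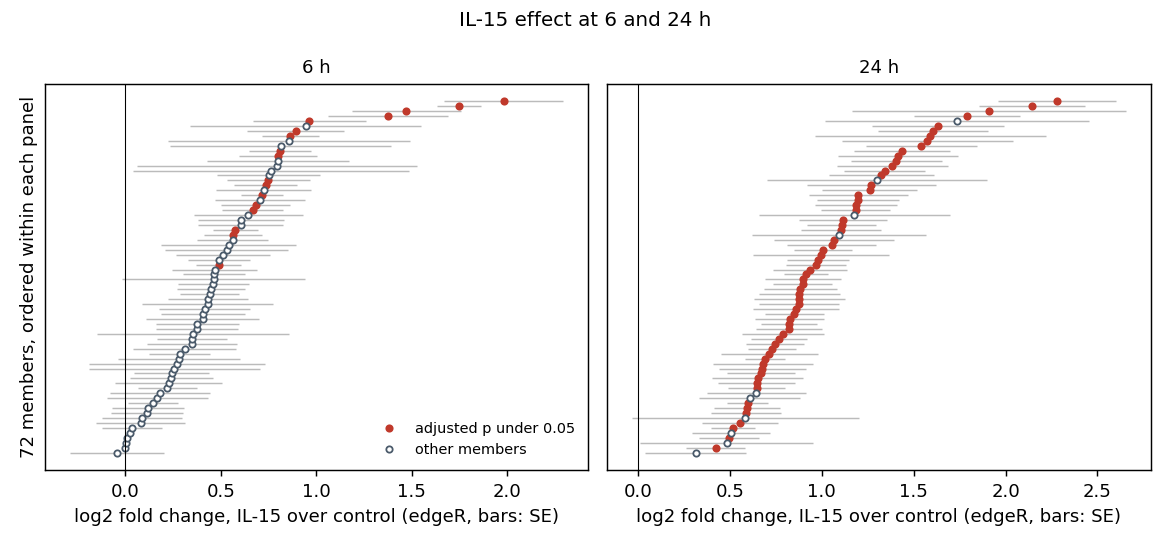
Log2 fold change of each of the 72 members, IL-15 over control, at 6 h (left) and 24 h (right), with bars for the standard error (none drawn where the test statistic was near 0) and members ordered within each panel. Filled points passed at an adjusted p under 0.05, 17 at 6 h and 62 at 24 h, and all 72 points lie above 0 at 24 h.

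By both tests, 16 members were higher at 6 and at 24 h, 46 at 24 h and not at 6 h, 1 at 6 h and not at 24 h, and 9 at neither time. These classes do not show that effects differed between the times, which was tested directly. The effect was greater at 24 h than at 6 h for 4 members, by 0.97 to 1.54 on the log2 scale, and smaller for 1, by -1.15 (edgeR, adjusted p under 0.05; 2.61% of all genes were greater and 2.1% smaller). The median of this difference was 0.53 over the members and -0.02 over all genes tested. The count depended on the fit. With each animal and time as a block 14 were greater and 2 smaller (1041 and 931 of 18197 genes tested). Without animal 38142 or without animal 38147 only the 1 smaller member was called, and without the libraries numbered 2 the count was 3.

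Some members also changed in the control cultures, as did many of all genes tested. At 6 h against 0 h, 26 members fell (36.1%), 12 rose (16.7%) and 34 were called in neither direction, where 25.5% of all genes tested fell and 25.5% rose. The members that fell did so by -0.45 to -2.62 on the log2 scale with a median of -0.97, and the median over all 72 was -0.32, against -0.03 over all genes. Without animal 38142, 16 fell and 9 rose. At 24 h against 0 h, 15 members fell (20.8%) and 19 rose (26.4%), where 25.4% of all genes fell and 30.1% rose. Both shares of members were near those of all genes and are not read as a trait of the members. The order of these counts was not stable. Without animal 38155, 24 fell and 17 rose (4412 and 4565 of 18063 genes tested). Without animal 38157, 20 fell and 17 rose (4167 and 4860 of 18220). With single libraries 27 fell and 25 rose (5232 and 5819 of 15917). The median over all 72 was -0.16 in the fit, against 0.06 over all genes. On log2(CPM + 1) it was 0.16, against 0.33 over the genes that met the CPM condition. The sign of the members' median thus turned with the scale, while it lay below that of the wider set on both. Both comparisons share the control cultures at 0 h. The members counted as fallen at 6 and at 24 h include ENSMFAG00000044083, described below, whose high level at 0 h was part of its choice.

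Between 6 and 24 h more members rose in IL-15 cultures than in control cultures. With IL-15, 39 of 72 (54.2%) rose between these times and 0 fell, where 17.8% of all genes rose and 17.1% fell (edgeR, adjusted p under 0.05; 0 fell at an unadjusted p under 0.05 and with DESeq2). The median change was 0.71 over the members and 0.03 over all genes. In control cultures 18 rose and 1 fell, where 16.3% of all genes rose and 15.3% fell, and the median change was 0.15, against 0.04. The other 53 members were not called in control cultures. Without animal 38155, 12 rose and 7 fell there with a median of 0.04, and with single libraries 29 rose and 11 fell. The difference of these 2 changes is the difference of effects tested above. Without animal 38142, 25 rose with IL-15.

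Single members show the kinds of course in the group. ENSMFAG00000031613 had the largest fold change at 6 h among members called higher and higher in 4 of 4 animals. At 6 h it stood at 7.88, 5.91, 24.2 and 13.002 CPM with IL-15 in animals 38142, 38147, 38155 and 38157, against 2.60, 2.98, 2.74 and 4.48 CPM in control cultures. IL-15 and control cultures did not overlap, and animal 38155 was the highest with IL-15. At 24 h the values were 53.04, 38.1, 57.6 and 49.03 CPM with IL-15, against 16.6, 17.9, 17.2 and 21.6 CPM in control cultures, again without overlap. The log2 fold change was 1.98 ± 0.31 (SE) at 6 h, with an adjusted p of 3.58e-05, and 1.60 ± 0.30 at 24 h, with one of 7.16e-05. For 6 h the adjusted p was 0.0544 with only the groups of that time in the fit.

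The same member also rose in control cultures, where it was 2.37 ± 0.32 higher at 24 h than at 0 h (adjusted p = 1.31e-07). By 48 h, IL-15 cultures held 35.6, 29.2, 44.01 and 37.8 CPM, against 24.4, 39.3, 30.3 and 27.2 CPM in control cultures, and the groups overlapped. Its IL-15 cultures averaged 45.4 ± 16.2 CPM at 12 h and 36.6 ± 6.12 CPM at 48 h, and its control cultures 6.74 ± 0.988 CPM and 30.3 ± 6.45 CPM (SD, n = 4). The level at 48 h was therefore one at which control cultures had come close to IL-15 cultures, not one at which IL-15 cultures were back at their early level.

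ENSMFAG00000036719 had the largest fold change at 24 h by the same conditions. At 24 h it stood at 37.6, 28.997, 86.7 and 14.97 CPM with IL-15 in animals 38142, 38147, 38155 and 38157, against 6.95, 7.57, 12.8 and 8.46 CPM in control cultures. The groups did not overlap, and animal 38155 was highest in both. The log2 fold change was 2.28 ± 0.32 (adjusted p = 1.51e-06), and at 6 h it was 1.37 ± 0.31 (adjusted p = 0.00336). At 48 h it held 14.9, 13.5, 26.9 and 11.7 CPM with IL-15, against 12.4, 16.6, 24.5 and 12.8 CPM in control cultures. Its IL-15 cultures averaged 47.5 ± 29.98 CPM at 12 h and 16.8 ± 6.89 CPM at 48 h, and its control cultures 6.49 ± 1.18 CPM and 16.6 ± 5.61 CPM (SD, n = 4). In this member both kinds of culture moved toward each other.

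ENSMFAG00000004754 fell furthest in control cultures by 6 h. In animals 38142, 38147, 38155 and 38157 it stood at 10.6, 7.01, 9.02 and 6.89 CPM in control cultures at 6 h, against 45.7, 34.4, 59.7 and 45.9 CPM at 0 h. IL-15 cultures at 6 h held 26.5, 20.2, 40.7 and 25.97 CPM, above all 4 control cultures of that time and, in each animal, below its control culture at 0 h. The change in control cultures was -2.62 ± 0.12 (adjusted p = 5.17e-19), and the effect of IL-15 at 6 h was 1.75 ± 0.11 (adjusted p = 7.58e-14).

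This member is the one whose effect was smaller at 24 h than at 6 h, by -1.15 ± 0.16 (adjusted p = 7.18e-06). Control cultures rose by 1.08 ± 0.11 between 6 and 24 h (adjusted p = 3.08e-09), and the change in IL-15 cultures was -0.07 ± 0.11 (adjusted p = 0.668). At 24 h it stood at 26.8, 20.9, 32.7 and 26.2 CPM with IL-15, against 18.8, 15.4, 28.9 and 17.7 CPM in control cultures, and the groups overlapped although each animal was higher with IL-15. Its difference between the cultures thus came with a lower control level while the IL-15 level stayed between 26.1 and 28.3 CPM on average at 2 to 24 h.

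ENSMFAG00000044083 fell furthest in control cultures at 24 h among the members not named before, at low levels. It is 1 of 2 members that met the CPM condition only through control cultures at 0 or 2 h (means of 9.51 and 6.63 CPM, against 1.98 to 3.40 CPM at later times), so its high level at 0 h was part of its choice. In animals 38142, 38147, 38155 and 38157 it stood at 1.45, 1.81, 7.22 and 1.75 CPM in control cultures at 24 h, against 9.25, 16.7, 8.79 and 3.26 CPM at 0 h. IL-15 cultures at 24 h held 2.31, 7.20, 7.997 and 3.36 CPM, higher than the control culture of the same animal in 4 of 4 animals, and the groups overlapped. The change in control cultures was -2.08 ± 0.38, given as a description since the level at 0 h was part of the choice. The effect of IL-15 at 24 h was 0.99 ± 0.37 (adjusted p = 0.0322). Without animal 38142, 38147 or 38157 this effect had an adjusted p of 0.0798, 0.150 and 0.110 in that order.

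**Figure D3:**
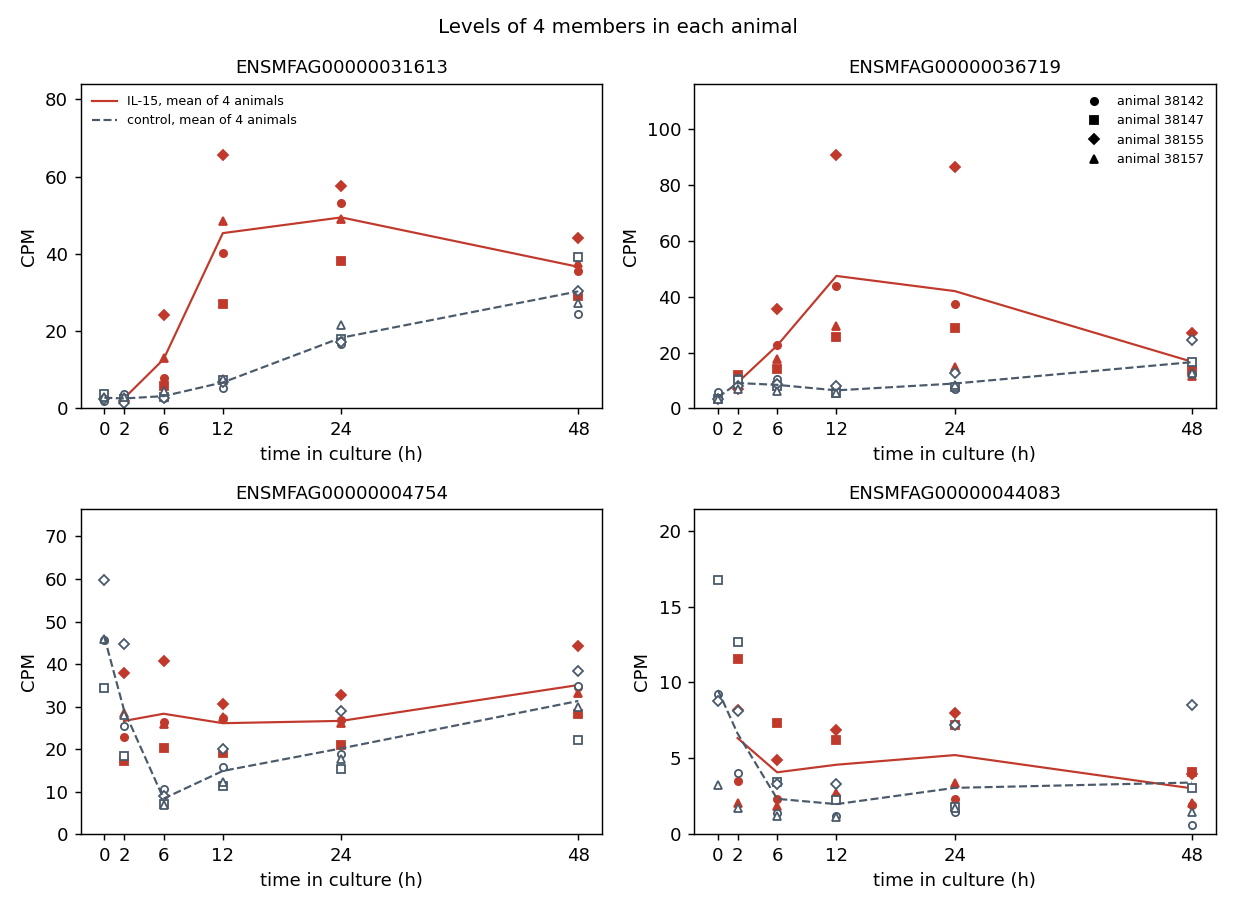
CPM of 4 members against time in culture, with filled points and solid lines for IL-15 and open points and dashed lines for control cultures; points are animals and lines join means of 4 animals. The IL-15 line is highest at 24 h in the upper left panel (49.4 CPM) and at 12 h in the upper right panel (47.5 CPM). In the lower left panel the control line drops to 8.37 CPM at 6 h while IL-15 cultures average 28.3 CPM.

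How the difference between the cultures closed after 12 h is a description, since the rule used both times. In IL-15 cultures 56 members stood lower at 48 h than at 12 h, and in control cultures 57 stood higher (77.8% and 79.2%, against 38.9% and 57.6% of the genes that met the CPM condition). For 41 members both held (56.9%, against 12.2%), for 15 only the IL-15 cultures moved toward control and for 16 only the control cultures toward IL-15. The rule makes the effect smaller at 48 h than at 12 h in every member, so each had to close from either side or both. The wider set had no such condition, so the gaps between these shares are partly built in. Among the 319 genes with a lasting effect, which were not required to close, 63.01% stood lower with IL-15 and 60.2% higher in control cultures. Both held for 27.9% of them. The median change over 72 members was 0.43 downwards in IL-15 cultures and 0.37 upwards in control cultures on the log2(CPM + 1) scale. The larger part was the IL-15 cultures' for 39 members and the control cultures' for 33 (45.8%, against 61.7% of the genes that met the CPM condition and 47.3% of the 319 with a lasting effect). Leaving out animal 38142 or animal 38157 turned this order, with the control cultures' part larger for 39 and 38 members, and without animal 38155 it was larger for 27.

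The closing came mostly after 24 h on the IL-15 side and over the whole interval on the control side. Between 12 and 24 h the median change was 0.03 in IL-15 cultures and 0.21 in control cultures. Between 24 and 48 h it was -0.52 in IL-15 cultures and 0.17 in control cultures. The rule used 12 and 48 h, so these changes are a description as well. Over the genes that met the CPM condition the medians of that last interval were 0.05 and 0.00241.

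**Figure D4:**
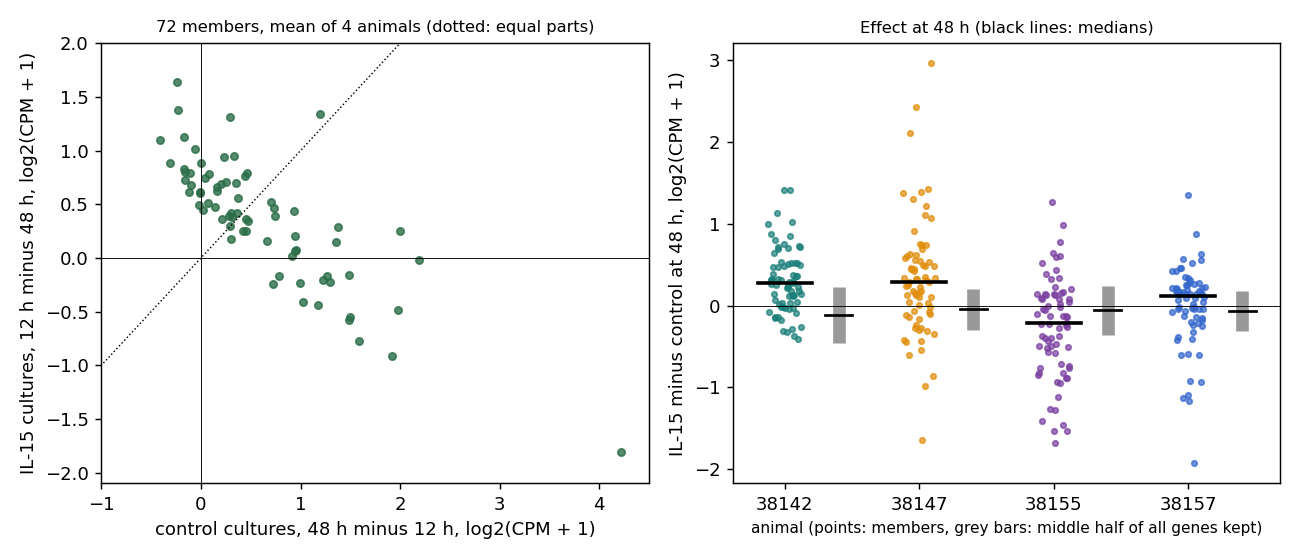
Left, change of each member's mean level in IL-15 cultures (12 h minus 48 h) against that in control cultures (48 h minus 12 h), with a dotted line where both parts are equal; the rule bounds the sum of both, so the slope of the cloud is no result. Right, effect at 48 h of each member in each animal, beside the interquartile range of all genes that met the CPM condition (grey); medians of the members are 0.27, 0.29, -0.22 and 0.12 in animals 38142, 38147, 38155 and 38157.

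The mean over animals at 48 h hid differences between them. The members' median effect at 48 h was 0.27 in animal 38142, 0.29 in 38147, -0.22 in 38155 and 0.12 in 38157, against -0.11, -0.04, -0.05 and -0.06 over the genes that met the CPM condition. An effect within 0.3 of 0 in 4 of 4 animals was seen for 6 members (8.33%), against 24.5% of the genes that met the CPM condition, and 13 members were within 0.3 in none (18.1%, against 22.5%). The SD of a member's effect over the 4 animals had a median of 0.40 at 48 h, against 0.18 over those genes and 0.41 over the 319 genes with a lasting effect. Above 0 in 4 of 4 animals were 4 members and below 0 in 4 of 4 was 1 (5.56% and 1.39%, against 23.9% and 36.3%). The rule bounds the mean over animals, so these shares are a description, and in the other 67 members the mean lay between animals on different sides of 0.

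Animal 38155 stood apart in this. The rule used the means over animals at 12 and 48 h. An animal with a high effect at 12 h and a low one at 48 h can bring genes into the group. The shares of animal 38155 at these times are thus partly built in and are a description. At 12 h it had the highest effect of the 4 animals for 55 members (76.4%, against 20.7% of the genes that met the CPM condition), and its median effect was 1.37, against 0.91, 0.67 and 0.81 in animals 38142, 38147 and 38157. At 6 h, a time the rule did not use, it had the highest effect for 52 members (72.2%, against 25.002%) and a median of 0.60, against 0.38, 0.27 and 0.38. At 48 h it had the lowest effect for 40 members (55.6%, against 17.8%), and for 17 it was below 0 with the other 3 animals above 0 (23.6%, against 2.46%). The level of its control cultures went with this: between 12 and 48 h their median change was 1.00, against 0.10, 0.35 and 0.22 in animals 38142, 38147 and 38157, and the part of this in the effect at 48 h was not tested. Averaged over the other 3 animals, 25 of the 72 members had an effect of at least 0.3 at 48 h and 20 one below 0.7 at 12 h. The rule applied without animal 38155 gave 34 genes, of which 30 were members.

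The counts of all members together show the same animal. Summed over the members, IL-15 cultures held 12140, 9413, 16057 and 10350 CPM at 12 h in animals 38142, 38147, 38155 and 38157, against 6330, 5346, 6377 and 5761 CPM in control cultures. At 48 h they held 8358, 7926, 11285 and 6145 CPM, against 6629, 6046, 18172 and 6556 CPM in control cultures. The control culture of animal 38155 thus stood above all others at 48 h, at 2.83 times the mean of the other 3, and 5 members made up 63.9% of that excess. At that time the animal had the highest IL-15 level of the 4 for 43 members (59.7%, against 28.4% of the genes that met the CPM condition) and the highest control level for 52 (72.2%, against 22.2%). The rule used 12 and 48 h, so these values are a description as well.

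**Figure D5:**
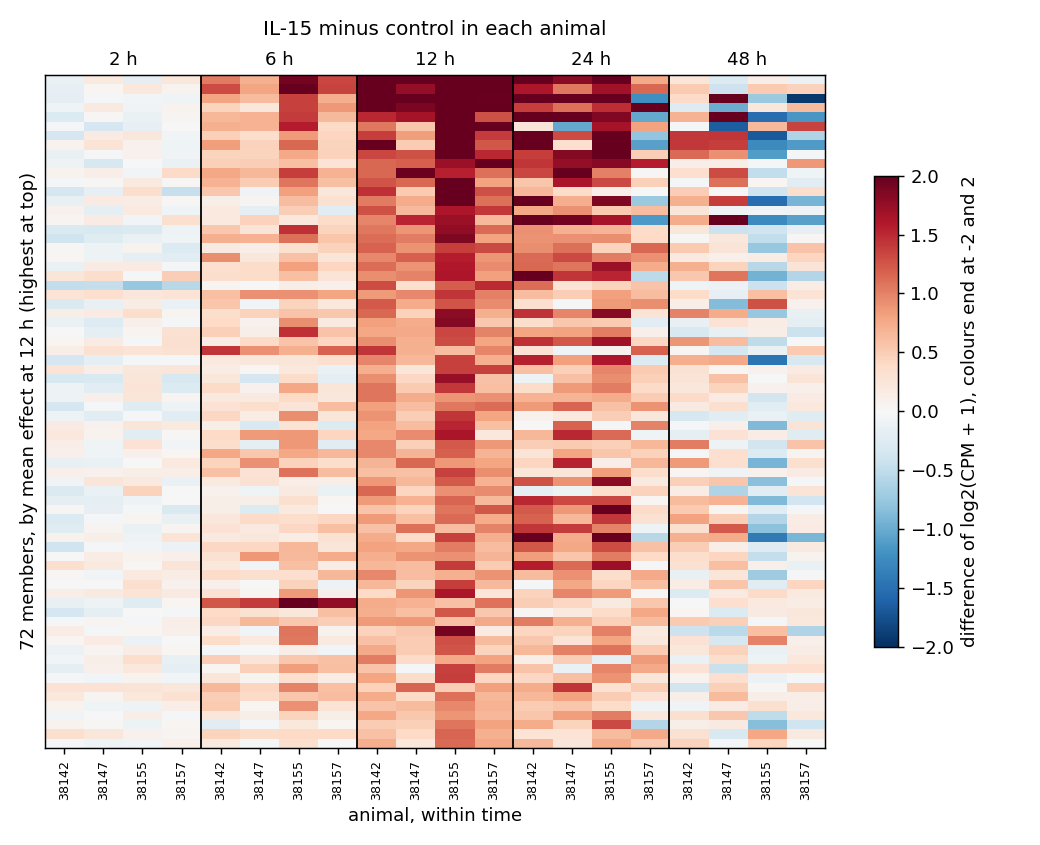
Effect of IL-15, in log2(CPM + 1), for the 72 members (rows, ordered by the mean effect at 12 h) in each of 4 animals at each of 5 times (columns); red is higher and blue lower with IL-15. At 48 h the columns of animals 38142 and 38147 are mostly red (medians 0.27 and 0.29) and that of 38155 mostly blue (median -0.22).

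A few members had opposite effects in different animals from 24 h on. In animal 38157, 9 members (12.5%, against 28.1% of the genes that met the CPM condition) had an effect of -0.3 or lower at 24 h. They were singled out after their values were seen, so no test is given. At 12 h all 9 were above 0 in each animal, with medians of 1.04, 0.84, 2.10 and 1.10 in animals 38142, 38147, 38155 and 38157. At 24 h their medians were 2.68, 1.30, 1.87 and -0.78. At 48 h all 9 were above 0 in animals 38142 and 38147, with medians of 0.71 and 1.39. All 9 were below 0 in animals 38155 and 38157, with medians of -1.27 and -0.93. The rule holds the mean over animals at 48 h within 0.3 of 0, so high values in some animals must be offset in others. The split at 48 h is thus partly built in. By the labels both pairs hold 1 female and 1 male, and what sets the pairs apart was not tested.

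Both kinds of culture differed between animals for these 9. Between 12 and 24 h their median level in IL-15 cultures changed by 0.04 in animal 38157, 1.92 in 38155, 1.56 in 38142 and 0.38 in 38147. In control cultures the changes over that interval were 1.97 in animal 38157, 2.06 in 38155, 0.19 in 38142 and 0.05 in 38147. The 63 other members had median effects at 48 h of 0.23, 0.23, -0.12 and 0.15 in animals 38142, 38147, 38155 and 38157.

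The same rule was applied to 3 animals at a time, and the genes it chose were looked at in the animal left out. Without animal 38142, 38155 or 38157 it chose 86, 34 or 73 genes, and without 38147 it chose 1.42 times the full number. The effect at 12 h was above 0 in the animal left out for 100%, 96.1%, 100% and 100% of them (animals 38142, 38147, 38155 and 38157), against 34.5%, 40.4%, 31.7% and 33.3% of the genes that met the CPM condition. It was at least 0.7 there for 73.3%, 40.2%, 91.2% and 52.1%, against 5.19%, 3.61%, 7.40% and 4.41%. At 48 h the effect was within 0.3 of 0 in the animal left out for 41.9%, 35.3%, 55.9% and 68.5% of the chosen genes, against 43.2%, 55.9%, 50.1% and 58.02%. It was 0.3 or higher at 48 h for 52.3%, 51.96%, 20.6% and 17.8% of them. Of the 10811 genes that met the CPM condition over all 4 animals, 2307, 2060, 2299 and 1803 were at 0.3 or higher in these animals. The direction at 12 h was thus shared by most chosen genes in each animal left out, its size by fewer, and the share within 0.3 of 0 at 48 h was above that of all genes in 2 of the animals left out and below it in the other 2. For genes chosen in the same way for a lasting effect, the shares within 0.3 of 0 at 48 h were 5.65%, 12.1%, 14.7% and 13.2%.

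The scale of the values shifted the group. On CPM, the median effect over the genes that met the CPM condition was -0.15 at 12 h, -0.14 at 24 h and -0.07 at 48 h. On CPM with TMM-scaled library sizes, which balance the bulk of the genes, it was 0.03, 0.02 and 0.04. On that scale the 72 members had median effects of 0.45, 1.07, 0.86 and 0.22 at the 4 times from 6 to 48 h, and the rule gave 1.56 times as many genes, 50 of them members. The tests at 6 and 24 h use that scaling.

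Libraries were also compared with their sisters of the same animal and group. Far from both sisters lay 3 libraries, a control library at 48 h of animal 38142, an IL-15 library at 24 h of 38147 and a control library at 2 h of 38157. Without them the rule gave 76 genes, 62 of them members, and the members' median effect at 48 h was 0.23 in animal 38142 and 0.88 at 24 h in animal 38147, against 0.27 and 0.81 with them. The tests without them called 18 members higher at 6 h and 62 at 24 h. The column names of the table carry unexplained tokens that divide the libraries into 6 sets and may mark batches. Where IL-15 and control libraries of 1 animal fell in the same set, 77.8%, 94.4% and 100% of the members were above 0 at 6 h in 3 sets that held animals 38157, 38142 and 38155 in that order, against 47.1%, 43.1% and 42.5% of the genes that met the CPM condition. At 24 h the shares were 94.4% and 97.2% in 2 sets, against 34.1% and 31.2%, and both are from animal 38155, so at 24 h no within-set value of another animal could be had.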

How the data were processed

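RNA of blood mononuclear cells was made into libraries with the KAPA mRNA HyperPrep kit after extraction with the Qiagen RNeasy Mini kit, per the labels' protocols. The authors deposited whole-number counts per gene and library, not normalized, in a table of cynomolgus gene IDs, which was used, and a second table of rhesus gene IDs, used for 1 alternative. Not given in the sources used here are the aligner, the counter, the genome build and whether counting used strand, so genes that share or overlap reads are uncertain. Reads were amplified and carry no molecular identifiers, so counts are not molecules, and precision was taken from the 4 animals.

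The 3 libraries of each animal and group of 132 in all were summed (44 sums of 54376963 to 126025607 counts). No sister libraries agreed within sampling noise (132 pairs, lowest chi-square per degree of freedom 4.00). The rule used CPM on column totals and a pseudocount of 1. Tests used edgeR 4.0.16 in R 4.3.3 (quasi-likelihood, TMM, filterByExpr, robust) with all 11 groups in 1 fit, a term for the animal and Benjamini-Hochberg adjustment over 18197 genes, at 0.05. Animals pair the groups by their labels, and deviations of IL-15 and control sums of the same animal correlated across genes at 0.58 or more (20 pairs, median 0.81). If the numbered libraries are technical, p-values still rest on animals. Alternatives were DESeq2 1.42.0, other filters, blocks, scaling and samples left out. The edgeR script was tested on simulated data first. Members and lists were chosen with earlier results of these data known. Lists of gene symbols could not be run, since 0 IDs matched a symbol.

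The IDs named are the member with the highest fold change at 6 h, at 24 h, and those with the lowest change in control culture at 6 and at 24 h (the next where the same), among members with an adjusted p under 0.05 and 1 direction in 4 of 4 animals. Python 3.11.15 with pandas 2.3.3 was used for the other values.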

Additional observations from a re-analysis of the deposited data

Results flagged for a closer look

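Among 55 groups of 4 animals (levels of the named members and the summed level), 3 held an animal far from the other 3, where chance at 1 in 20 gives 2.75. ENSMFAG00000036719 stood at 5.76 CPM in the control culture at 0 h of animal 38142, against 3.33 to 3.40 CPM in the others. ENSMFAG00000044083 stood at 7.22 CPM in the control culture at 24 h of animal 38155, against 1.45 to 1.81 CPM. The summed level of the members in the control culture at 48 h of animal 38155 was 18172 CPM, against 6046 to 6629 CPM in the others.

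For 5 members the IL-15 effect at 24 h and that at 6 h differed by the test of the difference itself (edgeR, adjusted p under 0.05). It was greater at 24 h than at 6 h for 4 members and smaller for 1, ENSMFAG00000004754, by -1.15 on the log2 scale with the effect above 0 in 4 of 4 animals at both times.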

How the results depend on the processing

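The rule gave 72 members as reported. As a multiple of that number it gave 0.472 to 1.42 with 1 animal or library number left out (0.472 without animal 38155, 1.42 without 38147). It gave 1.56 on TMM-scaled CPM and 0.903 to 1.14 under the other settings. Of these, the set without 3 libraries was added after the data were seen. A multiple near 1 does not mean the same genes. Without animals 38142, 38147, 38155 and 38157, 60, 53, 30 and 52 of the 72 members were chosen again. Without library numbers 1, 2 and 3, 62, 59 and 62 were. Members higher at 6 h were 17 as reported, 8 with no term for the animal (no block), 28 with a block of each animal and time, 44 with only the groups compared, 39 with single libraries and 37 with single libraries and their token set. With 1 animal or library number left out they were 10 to 17. Members higher at 24 h were 62, and under all 17 alternatives 44 to 69. Members whose effect differed between 6 and 24 h were 5, and 0 with no block (14 at an unadjusted p under 0.05, edgeR; DESeq2 with the animal called 6), 16 with the block of animal and time, 32 with single libraries, 33 with these and the token set, and 1 to 6 with 1 left out. Members changed in control culture by 6 h were 38, and 25 to 39 with 1 left out. By 24 h they were 34, and 52 with single libraries, with or without the token set. Members changed with IL-15 between 6 and 24 h were 39, and 25 to 43 with 1 left out. In control culture they were 19, and 9 with no block, 40 with single libraries and 36 with the token set. Single libraries are not separate animals. Causes of these moves were not tested. With no term for the animal, ENSMFAG00000004754 had an adjusted p of 0.0869 at 24 h and 0.107 for the difference of effects, and ENSMFAG00000044083 one of 0.360 at 24 h. No call of a named member reversed; depth and 4 animals limit the tests to the effects given.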
